A study of Mus musculus with 6 samples.

Results

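Transcripts of 10 genes that mark or arm macrophages were examined in colorectal tumors of mice with and without a deletion of the p53 gene *Trp53* directed at the intestinal epithelium. The genes were *Adgre1*, *Cd68*, *Csf1r*, *C1qa*, *C1qb*, *C1qc*, *Mrc1*, *Cd163*, *Arg1* and *Spp1*. They were taken by gene name from the 54167 genes of the deposited table, and each name matched 1 row. Tumors came from male C57BL/6J mice given azoxymethane (AOM), a carcinogen, at 10 mg/kg when 8 weeks old, followed by repeated 7-day courses of 2.5% dextran sulfate sodium (DSS), an agent that causes colitis. They were collected at day 98. The Trp53fl/fl group (3 tumors) carried *Trp53* alleles flanked by loxP sites and no villin-Cre. The VP group (Pvillin+Trp53fl/fl in the labels, 3 tumors) carried those alleles together with Cre under the villin promoter, which is active in intestinal epithelial cells, so the recombination is directed at the epithelium and not at macrophages. RNA of each whole tumor piece was sequenced as 1 library. No source says whether the 3 tumors of a group came from separate mice, and the p-values measure the spread between these tumors.

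Macrophages of the gut arise mostly from blood monocytes, which enter the wall, mature under the cytokine CSF1 and take up dead cells and bacteria. In tumors they can make inflammatory cytokines, matrix proteins and enzymes that consume arginine, and a given macrophage may express some of these products and lack others. The genes above fall into receptors and lysosomal proteins that mark the lineage (*Adgre1*, *Cd68*, *Csf1r*), the chains of complement C1q (*C1qa*, *C1qb*, *C1qc*), scavenger receptors (*Mrc1*, *Cd163*), and the secreted or metabolic products *Arg1* and *Spp1*. In bulk tumor RNA, fewer cells of a type and less RNA per cell cannot be told apart.

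Values are TPM (transcripts scaled to a fixed total per tumor), which are divided by transcript length and can be compared between genes of a tumor. Read depth is unknown. *Trp53* was at 124.94, 99.30 and 147.45 TPM in the Trp53fl/fl tumors against 38.45, 32.79 and 27.83 TPM in the VP group, a called difference of -1.87 (limma adjusted p = 0.0207) on the scale described next. Epithelial markers were high throughout. The sum of 12 such genes was 11101 to 11742 TPM in Trp53fl/fl and 12582 to 13771 TPM in VP tumors, without overlap. Of these 12 genes, 10 had a difference above 0 (VP minus Trp53fl/fl), against 39.2% of all genes tested. At an unadjusted limma p under 0.05, 3 of the 12 were higher in VP tumors, against 4.51% of all genes. Differences are given as VP minus Trp53fl/fl on the log2(TPM + 1) scale, on which changes of weakly expressed genes are understated. The limma fit covered the 15117 genes that reached 1 TPM in 3 or more tumors, and a gene was called when its Benjamini-Hochberg adjusted p was under 0.05. The median difference of all genes tested was -0.07.

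None of the macrophage genes was called between the genotypes. 9 of the 10 passed the expression filter, and *Cd163* did not, so limma called 0 of 9 members, against 0.165% of all genes tested, and 1 of 9 had an unadjusted p under 0.05. *Cd68* was the one member whose tumors were fully separated by genotype, at 31.0 ± 4.17 TPM in Trp53fl/fl and 44.9 ± 2.95 TPM in the VP group (SD, 3 tumors each). The C1q chains, *Arg1* and *Spp1* were abundant in every tumor of both genotypes, *Adgre1* and *Mrc1* were far lower, and *Cd163* was close to 0.

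Ordered by mean TPM over the 6 tumors, the genes ran from *C1qa* (163), *Spp1* (147), *C1qb* (135), *C1qc* (102) and *Arg1* (63.5) to *Cd68* (37.9), *Csf1r* (34.7), *Adgre1* (12.0), *Mrc1* (9.01) and *Cd163* (0.225). Several neighbours in this order did not keep it in every tumor. *C1qa* exceeded *Spp1* in 4 of 6 tumors, *Spp1* exceeded *C1qb* in 2 of 6, *Cd68* exceeded *Csf1r* in 3 of 6, and *Adgre1* exceeded *Mrc1* in 5 of 6. The steps from *C1qb* to *C1qc*, *C1qc* to *Arg1*, *Arg1* to *Cd68*, *Csf1r* to *Adgre1* and *Mrc1* to *Cd163* held in 6 of 6 tumors. Spread among tumors of a genotype did not follow abundance. The within-genotype standard deviation of log2(TPM + 1) was 0.94 for *Spp1*, 0.47 for *Mrc1*, 0.39 for *Adgre1* and 0.35 for *Csf1r*, which placed these genes at percentiles 97.6, 88.4, 83.7 and 79.2 of the genes tested. *Arg1* (0.27) stood at percentile 64.5 and *Cd68* (0.15) at 28.7, while the C1q chains stood between 15.7 and 21.2. The plot of levels shows both the wide scatter of *Spp1* and the narrow one of the C1q chains.

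**Figure D1:**
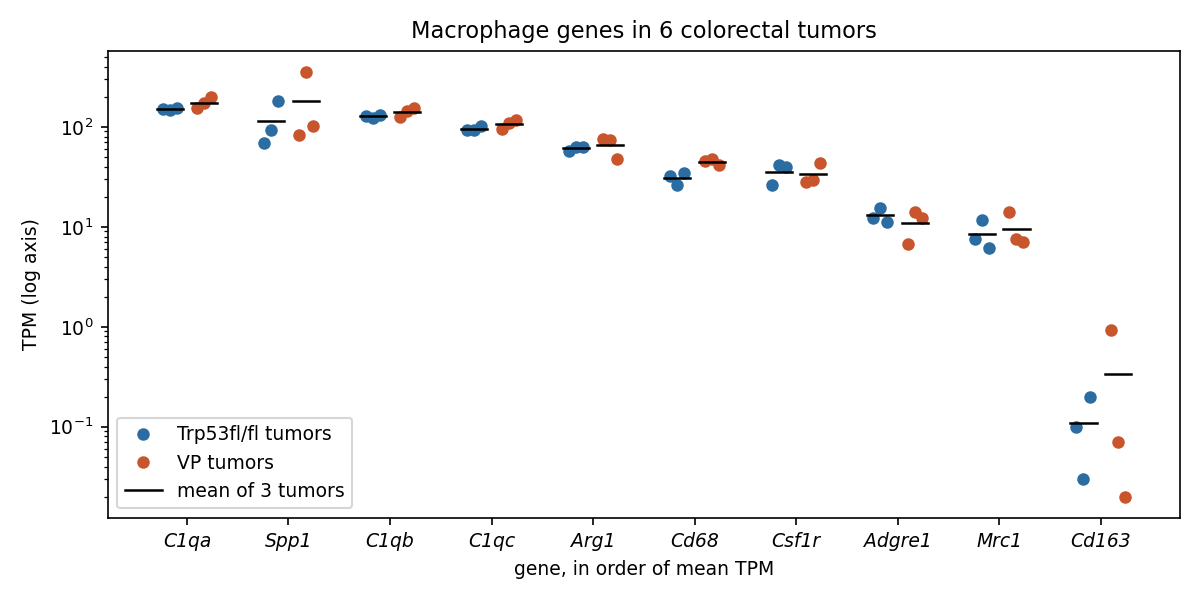
TPM of the 10 macrophage genes in each tumor, on a log axis, with genes in order of mean TPM, 3 Trp53fl/fl tumors in blue and 3 VP tumors in orange, and a black line at the mean of each genotype. The genotypes are separated for *Cd68* alone, and *Cd163* lies below 1 TPM in every tumor.

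*Adgre1* (ENSMUSG00000004730) encodes an adhesion receptor that is the classical surface marker of mouse macrophages. Gene positions are those of GENCODE M21 (GRCm38), where it spans 57358691 to 57483527 of chromosome 17. *Adgre1* was at 12.26, 15.47 and 11.27 TPM in the Trp53fl/fl tumors against 6.69, 13.93 and 12.32 TPM in the VP group. The genotypes overlapped, with the lowest value in VP replicate 1. The difference was -0.27 (limma standard error 0.27, 95% interval from -0.90 to 0.36, adjusted p = 0.678), and it was 0.02 without VP replicate 1.

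*Csf1r* (ENSMUSG00000024621, chromosome 18 from 61100598 to 61132149) encodes the receptor for CSF1 and IL-34, on which most tissue macrophages depend for survival. Its level was 25.92, 41.60 and 39.41 TPM in the Trp53fl/fl tumors and 27.88, 29.62 and 43.56 TPM in the VP tumors. Low and high tumors occurred in both genotypes. The difference of -0.08 was smaller than its standard error of 0.23 (limma 95% interval from -0.63 to 0.47, adjusted p = 0.903), and its sign turned without Trp53fl/fl replicate 2 (0.05), Trp53fl/fl replicate 3 (0.007) or VP replicate 1 (0.04).

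*Cd68* (ENSMUSG00000018774) encodes a heavily glycosylated protein of the late endosome and lysosome that phagocytes hold in large amounts. The 3 Trp53fl/fl tumors had 32.02, 26.38 and 34.53 TPM and the 3 VP tumors 45.55, 47.50 and 41.71 TPM. A gap of 7.18 TPM lay between the highest Trp53fl/fl tumor and the lowest VP tumor. The difference was 0.53 (limma standard error 0.13, 95% interval from 0.22 to 0.84), or 1.44-fold on the scale of TPM + 1. Its unadjusted limma p was 0.0049 and its adjusted p 0.270. The exact permutation test of the 3 tumors against 3 gave p = 0.1 (two-sided), the smallest it can give. *Cd68* was thus 1 of the 9 members tested with no overlap and higher values in VP tumors, against 6.03% of all genes tested, and none had lower values without overlap, against 13.3% of all genes. Under the unadjusted threshold of 0.05 it was also 1 of 9, against 12.5% of all genes. The difference remained positive under every scaling and with any 1 tumor left out, between 0.36 with centring on epithelial markers and 0.61 without Trp53fl/fl replicate 3, while the adjusted p ranged from 0.149 to 0.609.

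*Cd68* is also a neighbour of the targeted gene. It lies on the minus strand of chromosome 11 from 69664213 to 69666153, and 72340 bases separate it from the end of *Trp53*, which is annotated from 69580359 to 69591873. Both genotypes carry the same floxed alleles, and VP tumors have them recombined in Cre-expressing cells. The neighbours named here were chosen after their values were seen. Of the genes in between, *Sat2*, a polyamine acetyltransferase homologue, was at 1.45 to 2.05 TPM in Trp53fl/fl and 2.73 to 4.44 TPM in VP tumors, without overlap (difference 0.74, limma adjusted p = 0.303). *Atp1b2*, *Fxr2* and *Mpdu1* overlapped between the genotypes, with differences of -0.08, -0.18 and 0.03. *Eif4a1*, a translation initiation factor gene that ends 783 bases upstream of *Cd68* on the same strand, was at 613 to 783 TPM and differed by -0.05. Farther on that side, *Tnfsf13*, which encodes the cytokine APRIL, was at 11.76 to 17.29 TPM in Trp53fl/fl and 17.64 to 21.83 TPM in VP tumors (difference 0.49, limma adjusted p = 0.341). *Tnfsf13os*, annotated antisense to it, was at 12.11 to 17.66 TPM against 2.27 to 11.60 TPM (difference -1.47, limma adjusted p = 0.338). Both were without overlap, and since no source used here states that strand was used, reads of these overlapping genes may not be told apart. *Wrap53*, *Senp3* and *Tnfsfm13* of the same region overlapped between the genotypes, with differences of -0.03, -0.02 and 0.23. Over all genes tested, 6.03% were higher and 13.3% lower in VP tumors without overlap. Whether the position of *Cd68* has a part in its difference was not tested.

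Within a tumor, *Cd68* and the other lineage genes were not in a fixed proportion. The ratio of *Cd68* to *Adgre1* TPM was 2.61, 1.71 and 3.06 in the Trp53fl/fl tumors and 6.81, 3.41 and 3.39 in the VP tumors, without overlap. The ratio of *Cd68* to *Csf1r* TPM, in contrast, overlapped, from 0.634 to 1.24 in Trp53fl/fl and from 0.958 to 1.63 in VP tumors. *Csf1r* itself ran from 2.11 to 4.17 times the *Adgre1* TPM over the 6 tumors. The panels of centred values show *Cd68* with all VP tumors above all Trp53fl/fl tumors, a pattern that neither *Adgre1* nor *Csf1r* shared.

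**Figure D2:**
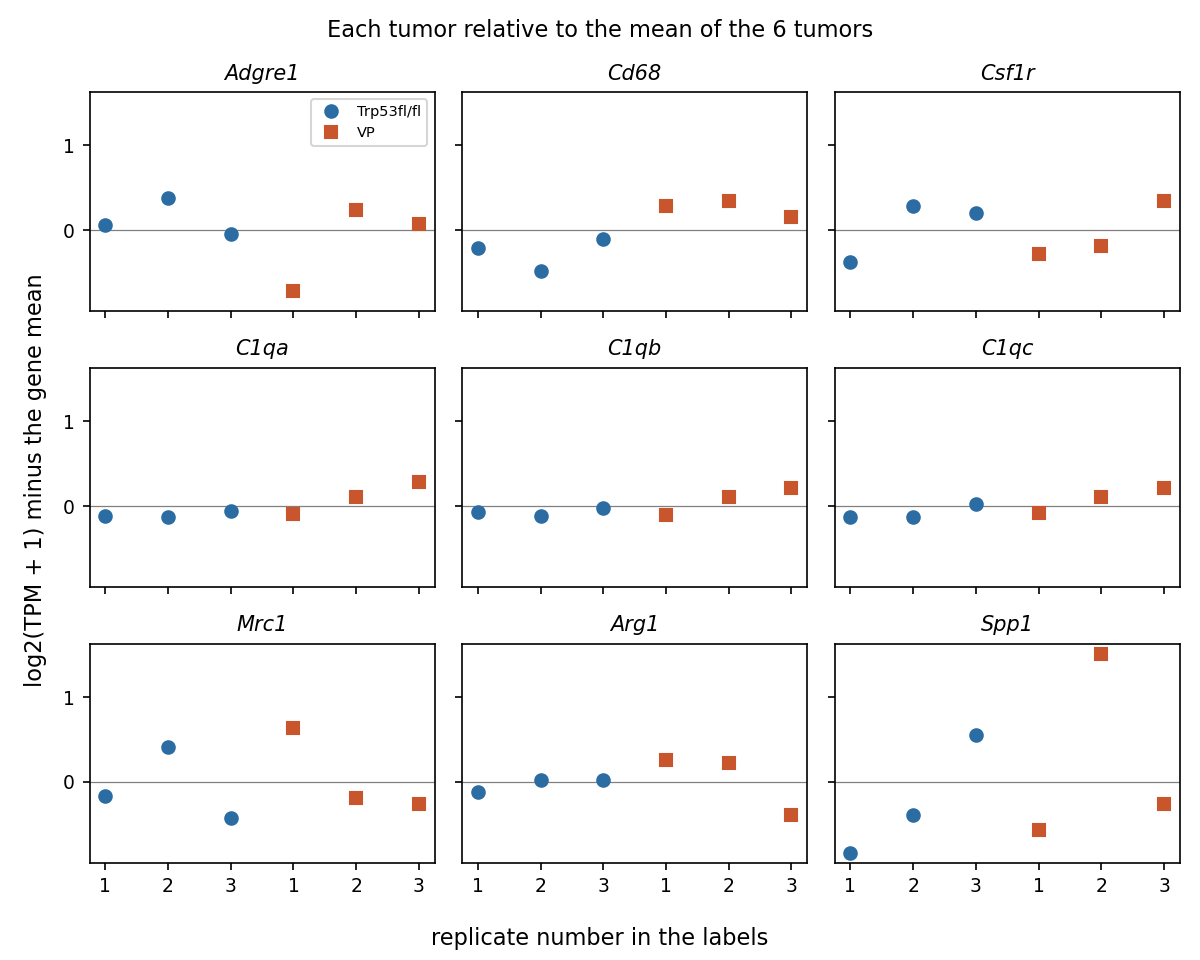
log2(TPM + 1) of each of the 9 members tested in each tumor, minus the mean of that gene over the 6 tumors, with Trp53fl/fl tumors as blue circles and VP tumors as orange squares in the order of their replicate numbers. *C1qa*, *C1qb* and *C1qc* have nearly the same pattern, *Cd68* is separated by genotype, and *Spp1* has 1 VP tumor far above the others.

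C1q is the recognition protein of the classical complement pathway, built from A, B and C chains that the 3 genes encode, and in tissues it is made chiefly by macrophages. The genes are neighbours on the minus strand of chromosome 4, within 18675 bases: *C1qb* (ENSMUSG00000036905, 136880129 to 136886187), *C1qc* (ENSMUSG00000036896, 136889804 to 136893065) and *C1qa* (ENSMUSG00000036887, 136895917 to 136898803). *C1qa* was at 150.09, 148.42 and 156.06 TPM in Trp53fl/fl tumors and at 152.76, 174.96 and 197.25 TPM in VP tumors. VP replicate 1 lay among the Trp53fl/fl tumors, and VP replicates 2 and 3 above them. *C1qb* had the same order of tumors at the top, with 128.11, 123.84 and 132.95 TPM against 125.31, 144.87 and 155.67 TPM. *C1qc* was at 92.46, 92.83 and 102.86 TPM against 95.55, 109.37 and 117.60 TPM. For each chain the genotypes overlapped through VP replicate 1.

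The differences of *C1qa*, *C1qb* and *C1qc* were 0.20, 0.14 and 0.16, with limma standard errors of 0.12, 0.11 and 0.11 and adjusted p-values of 0.509, 0.615 and 0.580. Their 95% intervals ended at 0.48, 0.40 and 0.43, and all 3 intervals began below 0. When tumors were centred on epithelial markers, which moved the median of all genes to -0.24, *C1qb* and *C1qc* were at -0.0265 and -0.0087 and *C1qa* at 0.03. The chains varied little among tumors of a genotype. Their within-genotype standard deviations of log2 values were 0.13, 0.12 and 0.12, below the median of 0.21 over all genes tested.

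The proportions of the chains were nearly constant. *C1qa* made up 40.5%, 40.7% and 39.8% of the summed C1q TPM in Trp53fl/fl tumors and 40.9%, 40.8% and 41.9% in VP tumors. *C1qb* accounted for 33.9% to 34.6% in Trp53fl/fl and 33.1% to 33.8% in VP tumors, and *C1qc* for 24.9% to 26.2% over the 6 tumors. The share of *C1qa* was thus slightly higher and that of *C1qb* slightly lower in VP tumors, each without overlap, while that of *C1qc* overlapped. These shares were not tested. The summed C1q TPM was 376 ± 14.1 in Trp53fl/fl and 424 ± 48.6 in VP tumors (SD, n = 3 each), with overlap.

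Promoter sequences of *C1qb*, *C1qc* and *Cd68* are shown because the C1q chains had one profile over the tumors while *Cd68* alone was separated by genotype. They are RefSeq windows of GRCm38.p6 from 250 bases before to 50 bases after the start site, written 5′ to 3′ along the gene, and capitals mark GAGGAA or its reverse complement TTCCTC, a core that the myeloid factor PU.1 can bind. *C1qb* is chr4:136886151-136886450, *C1qc* chr4:136892865-136893164 and *Cd68* chr11:69666121-69666420, all on the minus strand.
C1qb: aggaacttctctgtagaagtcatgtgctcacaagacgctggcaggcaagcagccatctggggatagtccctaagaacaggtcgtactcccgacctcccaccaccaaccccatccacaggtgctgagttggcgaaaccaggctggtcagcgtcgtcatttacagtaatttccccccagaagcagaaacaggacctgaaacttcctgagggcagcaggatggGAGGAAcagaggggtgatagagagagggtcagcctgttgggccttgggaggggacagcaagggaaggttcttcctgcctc
C1qc: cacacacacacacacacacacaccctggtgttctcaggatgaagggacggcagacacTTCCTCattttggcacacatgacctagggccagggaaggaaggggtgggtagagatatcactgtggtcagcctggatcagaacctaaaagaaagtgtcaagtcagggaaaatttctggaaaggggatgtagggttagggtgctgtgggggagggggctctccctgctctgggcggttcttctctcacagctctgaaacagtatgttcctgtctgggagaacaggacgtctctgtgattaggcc
Cd68: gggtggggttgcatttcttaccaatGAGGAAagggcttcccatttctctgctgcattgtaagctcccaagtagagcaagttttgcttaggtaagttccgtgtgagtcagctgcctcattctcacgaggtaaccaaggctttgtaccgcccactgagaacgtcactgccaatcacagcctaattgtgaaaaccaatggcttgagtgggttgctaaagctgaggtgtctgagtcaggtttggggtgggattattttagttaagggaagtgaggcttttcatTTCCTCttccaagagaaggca

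The first base of the match lay at position -30 in *C1qb*, at -193 in *C1qc*, and at -225 and 30 in *Cd68*, counted from the start site. Windows were held for 6 members, and 5 of these had a match, with *Mrc1* (3 matches) and the first window of *Spp1* (1 match) besides those shown. *Cd163* had none. Of all 32851 promoter windows, 28.3% held the 6 letters on either strand, so a match is common and describes the letters alone.

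Scavenger receptors gave lower levels than the C1q chains. *Mrc1* (ENSMUSG00000026712, chromosome 2 from 14229392 to 14332057) encodes the mannose receptor CD206, which takes up glycoproteins and is used as a marker of alternatively activated macrophages. It was at 7.56, 11.78 and 6.18 TPM in Trp53fl/fl tumors and at 14.01, 7.48 and 7.03 TPM in VP tumors. The highest and the next highest tumor belonged to different genotypes. The difference was 0.13 (limma standard error 0.31, 95% interval from -0.60 to 0.85, adjusted p = 0.879), and it was -0.16 without VP replicate 1, -0.05 without Trp53fl/fl replicate 3 and -0.04 with epithelial centring.

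*Cd163* (ENSMUSG00000008845, chromosome 6 from 124304656 to 124330527) encodes the receptor that clears haemoglobin bound to haptoglobin, typical of mature resident macrophages in many organs. It was listed at 0.10, 0.03 and 0.20 TPM in the Trp53fl/fl tumors against 0.93, 0.07 and 0.02 TPM in the VP group. No tumor reached 1 TPM, so the gene did not enter the fit. When the expression filter was dropped, its difference was 0.21 (limma adjusted p = 0.771). VP replicate 1, which had the highest *Cd163*, also had the highest *Mrc1* and the lowest *Adgre1*.

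*Arg1* (ENSMUSG00000019987, chromosome 10 from 24915221 to 24927484) encodes arginase 1, which splits arginine into ornithine and urea and is another marker of alternative activation in the mouse. It was at 57.49, 63.58 and 63.49 TPM in Trp53fl/fl tumors and at 75.36, 73.34 and 47.44 TPM in VP tumors. Both the highest and the lowest tumor were VP tumors. The difference was 0.06 (limma standard error 0.19, 95% interval from -0.38 to 0.50, adjusted p = 0.911), with negative values under epithelial centring (-0.11), pan-leukocyte centring (-0.06), and without VP replicate 1 (-0.06) or VP replicate 2 (-0.04). *Arg1* TPM was 5.38 to 10.3 times that of *Mrc1*, and the tumors high in one were not always high in the other, since VP replicate 2 was near the top for *Arg1* and below 3 other tumors for *Mrc1*.

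*Spp1* (ENSMUSG00000029304, chromosome 5 from 104435118 to 104441050) encodes osteopontin, a secreted protein that binds integrins and CD44 and that tumor macrophages as well as other cells can make. It was at 68.60, 93.84 and 181.27 TPM in Trp53fl/fl tumors and at 82.78, 354.15 and 102.60 TPM in VP tumors. VP replicate 2 had 5.16 times the TPM of the lowest tumor, while the other VP tumors lay inside the Trp53fl/fl range. The difference was 0.45 (limma standard error 0.58, 95% interval from -0.92 to 1.82, adjusted p = 0.759), and -0.19 without VP replicate 2.

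Since C1q and osteopontin are products that macrophages can make in different proportions, *Spp1* was also read against *C1qc* within each tumor. The ratio of *Spp1* to *C1qc* TPM was 0.742, 1.01 and 1.76 in Trp53fl/fl tumors and 0.866, 3.24 and 0.872 in VP tumors. On the log2(TPM + 1) scale *Spp1* minus *C1qc* averaged 0.13 ± 0.63 and 0.43 ± 1.09 (SD, n = 3 each), a difference of 0.29 (exact permutation test, two-sided, p = 0.7, where 3 tumors against 3 cannot go below 0.1). Without VP replicate 2 that difference was -0.33. The balance of *Spp1* and *C1qc* therefore varied more among tumors of a genotype than between the genotypes.

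Of the 9 members tested, 7 had a difference above 0 and 2 below, and their median was 0.14, against 39.2% of all genes above 0 and a median of -0.07 over all genes tested. With epithelial centring the median of the members was -0.0265 and that of all genes -0.24, and with pan-leukocyte centring they were 0.02 and -0.19. The plot of differences gives the interval of each gene, which covers that gene alone and is not widened for the number of genes tested.

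**Figure D3:**
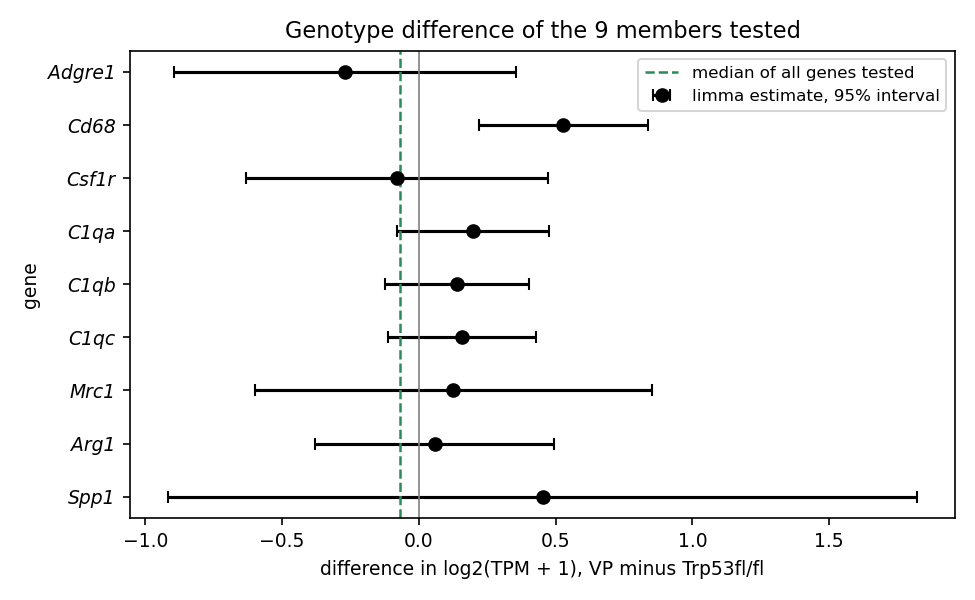
Difference in log2(TPM + 1), VP minus Trp53fl/fl, for each of the 9 members tested, as the limma estimate with its 95% interval, and a dashed line at the median of all genes tested (-0.07). The interval of *Cd68* lies above 0, from 0.22 to 0.84, and the other 8 intervals include 0.

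Beyond these 10 genes, 156 further gene names tied to macrophages were listed by role, with earlier results of these data known. Of these names, 155 were found in the deposited table, and 139 passed the expression filter. 1 of them was called, *Cfb*. At an unadjusted limma p under 0.05, 32 were higher and 2 lower in VP tumors of 139, while 4.51% of all genes tested were higher and 8.0% lower at that threshold. The same shares of all genes apply to the counts of each list below. Their median difference was 0.15, and 99 of 139 were above 0. With any 1 tumor left out, 21 (without VP replicate 2) to 35 of these genes were higher and 1 to 5 lower at that threshold. Of all genes, 3.07% to 5.54% were then higher and 4.41% to 10.9% lower. With centring on epithelial or pan-leukocyte genes, 19 and 17 were higher and 8 and 4 lower, where 2.03% and 1.92% of all genes were higher and 23.8% and 7.61% lower. Neutrophil markers differed between the same tumors. Of the 13 neutrophil genes tested, 13 had a difference above 0, with a median of 1.73, 9 were higher at the unadjusted threshold, and 1, *Ngp*, was called. *S100a9* was the most abundant of them, and the summed level of the 15 neutrophil genes listed was 415 to 744 TPM in Trp53fl/fl and 1247 to 2088 TPM in VP tumors. *Mpo* and *Elane*, granule enzyme genes transcribed in immature neutrophils and named after their values were seen, were at 0.36 TPM or less in every tumor. Other granule genes of the list, *Ngp*, *Camp* and *Ltf*, were higher in VP tumors without overlap. *Ngp* was at 0.21 to 0.81 against 18.17 to 48.44 TPM, *Camp* at 0 against 2.53 to 6.14 TPM, and *Ltf* at 5.02 to 6.01 against 15.52 to 84.41 TPM. In all, 10 of the 13 neutrophil genes tested were higher without overlap, against 6.03% of all genes tested. *Mmp9*, *Ly6g* and *Csf3r*, also named after their values were seen, overlapped between the genotypes, with differences of 0.23, 0.21 and 0.07. The lists of macrophage-related genes were made by role, and their genes are not confined to macrophages. Several of the genes below are also expressed by neutrophils, epithelial cells or other cells of the tumor. The part of these cells in the result, and in the call of *Cfb*, was not tested.

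For genes of monocyte recruitment the question was whether signals and markers of arriving monocytes differed. Of 13 tested, 6 were higher and 1 lower at an unadjusted p under 0.05, and 0 were called. *Ccl2*, the main chemokine for CCR2-bearing monocytes, was at 11.74, 8.54 and 16.40 TPM in Trp53fl/fl and at 34.02, 53.13 and 35.62 TPM in VP tumors. Each VP tumor thus exceeded each Trp53fl/fl tumor, with a difference of 1.68 (limma adjusted p = 0.103). *Ccr2* itself, named after its values were seen, was at 2.71, 4.69 and 2.32 TPM against 1.37, 3.63 and 2.85 TPM and overlapped (difference -0.24, limma adjusted p = 0.762). *Ccl3*, *Ccl4*, *Ccl7* and *Ly6c2*, which encode further chemokines and a surface protein of inflammatory monocytes, had differences of 1.86, 1.27, 1.10 and 0.55. *Cx3cl1*, the ligand of the chemokine receptor of resident gut macrophages, was at 24.79 to 27.05 TPM in Trp53fl/fl and 36.73 to 38.79 TPM in VP tumors. The receptor gene *Cx3cr1* was the lower one, with 9.65, 11.61 and 12.18 TPM against 8.28, 7.52 and 8.36 TPM, a difference of -0.42 (limma adjusted p = 0.335). *Plac8*, with the highest mean of the list, overlapped between the genotypes (difference 0.33).

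Among 29 tested genes of shared macrophage identity, 8 were higher and 0 lower at the unadjusted threshold. *Cd14*, the coreceptor for bacterial lipopolysaccharide, was at 118.26, 87.21 and 109.62 TPM against 134.12, 227.99 and 191.90 TPM in VP tumors, a difference of 0.79 (limma adjusted p = 0.287). *Ms4a4c*, *Fcgr3*, *Ctss*, *C5ar1*, *Fcer1g* and *Tyrobp*, among them genes for an Fc receptor, a lysosomal protease and signalling adaptors, had differences between 0.31 and 1.49. *Lyz2*, the most abundant of the list, was at 514.88 to 787.27 TPM and overlapped (difference -0.14).

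For receptors and ligands of the CSF family, 1 of 6 was higher at the unadjusted threshold. That gene was *Csf2*, which encodes GM-CSF and was at 0.98, 0.51 and 0.14 TPM in Trp53fl/fl and at 2.78, 1.44 and 1.92 TPM in VP tumors (difference 0.99, limma adjusted p = 0.302). The ligands of the *Csf1r* product, *Csf1* and *Il34*, named after their values were seen, overlapped with differences of -0.43 and 0.25. *Csf2ra* had the highest mean of the list and a difference of -0.19.

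The resident macrophage genes *Timd4*, *Vsig4* and *Cd209f*, named after their values were seen, stayed at or below 0.35 TPM in each tumor. Like *Cd163*, they were not tested. Others of the list, also named after their values were seen, had higher levels in every tumor and overlapped between the genotypes. *Stab1* was at 24.35 to 41.24 TPM, *Lyve1* at 6.33 to 13.31 TPM and *F13a1* at 4.22 to 9.03 TPM. *Fcna* was at 3.25 to 5.89 TPM and *Folr2* at 1.41 to 2.92 TPM. Of 8 tested, 1 was higher at the unadjusted threshold. This was *Cbr2*, a carbonyl reductase gene, at 21.43, 25.14 and 28.04 TPM against 38.60, 45.34 and 47.02 TPM (difference 0.79, limma adjusted p = 0.133), and the most abundant of its list.

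Genes of inflammatory activation gave 6 of 16 tested that were higher and 0 that were lower at the unadjusted threshold. *Nos2*, which encodes the inducible nitric oxide synthase that shares arginine with arginase 1, was at 30.23, 19.40 and 22.00 TPM in Trp53fl/fl and at 38.57, 83.65 and 62.45 TPM in VP tumors. The difference of *Nos2* was 1.29 (limma adjusted p = 0.246), next to 0.06 for *Arg1*. *Il6*, *Cxcl10*, *Il1a*, *Tnf* and *Tlr2*, which encode cytokines, a chemokine and a receptor for bacterial lipoproteins, had differences from 1.82 to 0.32, in this order. *Il1b* had the highest mean of the list and overlapped, at 51.43, 37.00 and 63.63 TPM against 39.13, 136.37 and 133.96 TPM.

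Of 10 genes of alternative activation that were tested besides *Mrc1* and *Arg1*, 3 were higher at the unadjusted threshold. *Chil3*, a chitinase-like protein of macrophages that neutrophils and monocytes also make, was at 8.32, 3.14 and 3.65 TPM against 77.40, 53.48 and 12.61 TPM (difference 2.78, limma adjusted p = 0.259). *Arg2*, the mitochondrial arginase, was at 3.51 to 5.88 TPM in Trp53fl/fl and 8.42 to 8.68 TPM in VP tumors. *Il4ra*, which encodes the receptor chain through which IL-4 and IL-13 signal, differed by 0.33, and *Tgm2*, the most abundant of the list, by 0.08. Among 7 genes tested of arginine transport and use, all were above 0 and 0 passed the unadjusted threshold, with *Odc1* the most abundant (difference 0.01).

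Lipid and phagosome genes had 2 higher and 1 lower of 18 tested. *Gpnmb*, a glycoprotein of lipid-laden macrophages, was at 5.08, 4.27 and 11.16 TPM against 26.61, 16.17 and 11.19 TPM (difference 1.30), and *Ctsb*, a lysosomal protease gene, differed by 0.28. *Abca1*, which exports cholesterol, was at 16.38, 16.91 and 14.27 TPM against 13.35, 9.91 and 10.24 TPM (difference -0.48). *Apoe*, at 1796 to 2439 TPM the most abundant of all these genes, overlapped and differed by 0.04. Of 12 tested transcription factors, 1 passed the unadjusted threshold, *Irf8*, at 28.73, 27.05 and 30.95 TPM against 34.72, 39.57 and 34.63 TPM (difference 0.32), and *Id3*, the most abundant, differed by -0.38.

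The list of complement genes held the one called gene. Factor B, encoded by *Cfb* and part of the alternative pathway, was at 72.59, 70.67 and 70.54 TPM in Trp53fl/fl tumors and at 165.14, 169.72 and 130.96 TPM in VP tumors. The difference was 1.10 (limma adjusted p = 0.0318), against 0.14 to 0.20 for the C1q chains, and the adjusted p was 0.05 or higher in 9 of the 15 alternatives tried (up to 0.165), among them each omission of 1 tumor but VP replicate 3. *C2*, whose product is cleaved in the classical pathway, was at 8.03, 6.70 and 6.69 TPM against 15.85, 14.72 and 13.79 TPM (difference 0.96, limma adjusted p = 0.0749). *C1ra*, which encodes a protease carried by C1q, and *Serping1*, which encodes its inhibitor, differed by 0.33 and 0.25. *Calr*, the most abundant of the list, differed by 0.15. Of 9 genes for osteopontin receptors, 0 passed the unadjusted threshold, and *Itgb1*, the most abundant, differed by -0.17.

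**Figure D4:**
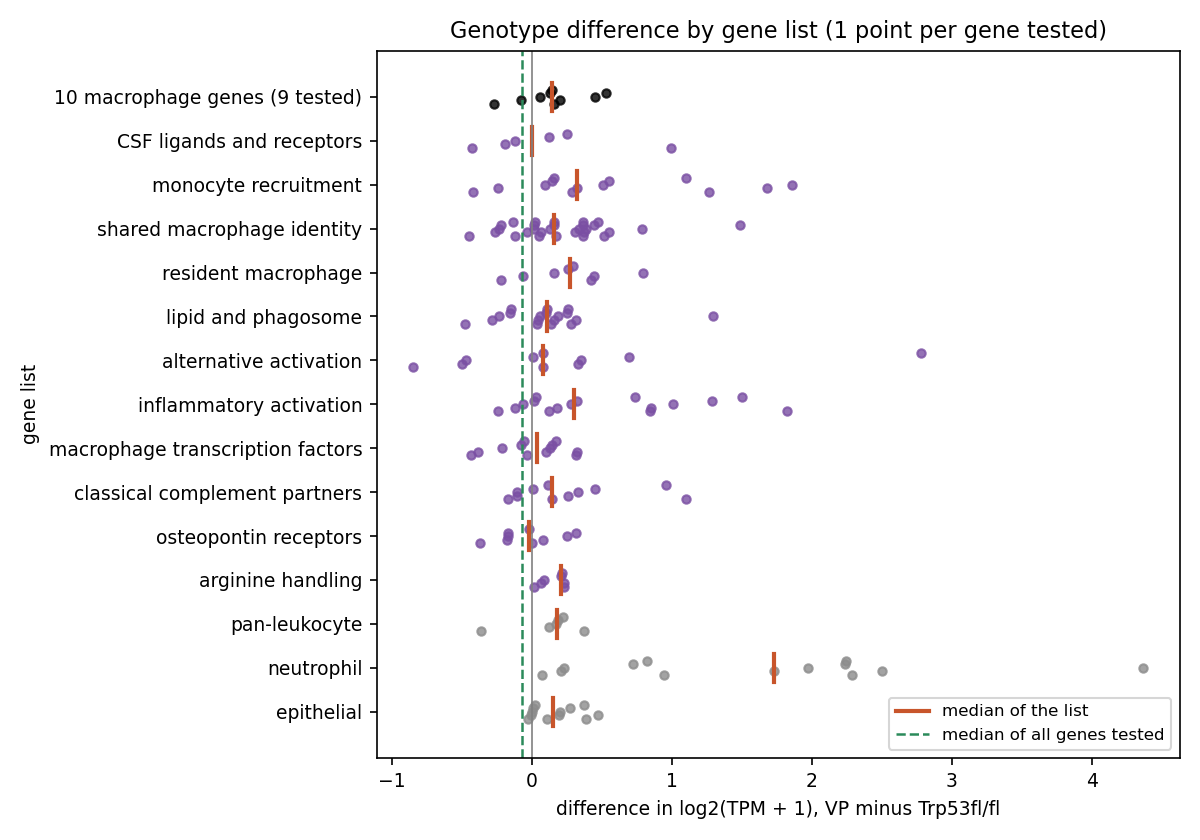
Difference in log2(TPM + 1), VP minus Trp53fl/fl, with 1 point per gene tested for the 9 macrophage genes (black), the lists of other macrophage-related genes (purple) and lists of pan-leukocyte, neutrophil and epithelial genes (grey). Orange bars mark list medians, which are 0.14 for the members and 1.73 for the neutrophil genes, and the dashed line marks the median of all genes tested (-0.07).

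Markers of other cells of the tumor are given as summed TPM. The 6 pan-leukocyte genes summed to 144 to 180 TPM in Trp53fl/fl and 141 to 206 TPM in VP tumors, with 0 of 6 at an unadjusted p under 0.05, 5 differences above 0, 1 below and a median of 0.18. *Laptm5*, a lysosomal membrane protein gene and the most abundant of them, differed by 0.12, with overlap. Dendritic cell genes were low, with 3 of 9 tested and sums of 14.1 to 15.5 TPM against 8.29 to 14.4 TPM. T cell genes summed to 39.0 to 54.7 against 28.5 to 50.4 TPM, B and plasma cell genes to 579 to 1010 against 569 to 1070 TPM, and mast cell genes to 122 to 462 against 79.2 to 253 TPM. Sums of fibroblast genes were 917 to 1008 against 781 to 1121 TPM, of smooth muscle genes 514 to 848 against 437 to 1390 TPM, and of endothelial genes 111 to 137 against 136 to 145 TPM. VP replicate 2, the tumor highest in *Spp1*, had the highest smooth muscle sum. *Lyve1* stands in both the resident macrophage and the endothelial list.

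The genes whose levels followed those of the C1q chains most closely over the 6 tumors were found by the root mean square difference between centred log2(TPM + 1) values and the mean centred profile of the 3 chains. Among 15108 genes compared, *Gabarap* (0.0167), *Ccdc12* (0.0183), *Mboat7* (0.0319), *Atp6v0b* (0.0377) and *Smdt1* (0.041) were nearest, beside 0.018 to 0.0249 for the chains themselves. Among the nearest to the mean profile of the 9 members tested were *Cenpx* (0.0288), *Itm2a* (0.0363), *Gm10863* (0.0409) and *P2ry6* (0.0433), whereas the members lay between 0.108 and 0.676 from their own mean. With 6 points from the same libraries, near matches among so many genes are a description only.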

How the data were processed

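RNA-seq covered 3 Trp53fl/fl and 3 VP tumors. The authors selected poly(A) RNA with RIN above 8, and deposited TPM for each gene to 2 decimals after paired-end sequencing, without pooling. The submitters' processing notes name HISAT2, StringTie and the build mm9, and versions and annotation are not given in the sources used here. TPM are scaled to a fixed total (999964 to 1000067 per tumor), so each value depends on all other genes, and the depth and counting error are unknown.

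Columns were matched to tumors by the codes in the labels, and no columns were identical. Positions came from GENCODE M21 (GRCm38) by gene ID, which held 52093 of 54167 IDs and all 10 members. The deposited table itself holds no coordinates. Promoters came from RefSeq (GRCm38.p6), and windows of 6 members were found.

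log2(TPM + 1) of 15117 genes (at least 1 TPM in at least 3 tumors) was fitted with limma 3.58.1 in R 4.3.3 (empirical Bayes with trend, Benjamini-Hochberg adjustment over all genes) and tested on simulated data first. Exact permutation tests used scipy 1.17.1. Members and lists were chosen with earlier results of these data known. Named genes were all members and, per list, genes with an unadjusted p under 0.05 and the most abundant gene, together with the genes most alike in profile. Genes outside this rule are marked where named, and some that it names are not reported here. Alternatives were other pseudocounts, filters and scalings, a replicate block, no trend, and each tumor left out. Labels give no sequencing batch.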

Additional observations from a re-analysis of the deposited data

How the results depend on the processing

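None of the 9 members tested had a limma adjusted p under 0.05 in any of the 15 alternatives. At an unadjusted p under 0.05 the counts were 1 of 9 members, 34 of 139 other macrophage-related genes (24.5%) and 1892 of all 15117 genes tested (12.5%). For each change below the cause was not tested.

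All genes called numbered 25, and became 7 without a filter, 40 with epithelial centring, 39 with pan-leukocyte centring, 10 with the replicate block and 6 to 28 with a tumor left out. Higher calls were 12 of 25, and 12 of 20 with median-of-ratios rescaling, 13 of 40 and 15 of 39 with epithelial and pan-leukocyte centring, and 7 of 10 with the block. These centrings moved the median of all genes from -0.07 to -0.237 and -0.188. Other macrophage-related genes called were 1, and 0 without a filter, with the replicate block or without trend. Quantile normalization gave 2, and leaving a tumor out gave 0 to 2. At an unadjusted p under 0.05, counted by direction under each alternative after the data were seen, 17 to 38 of these genes were higher and 1 to 8 lower. Of all genes tested, 1.92% to 6.95% were higher and 4.41% to 23.8% lower under these alternatives.

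The median of the members, 0.14, was -0.0265 with epithelial centring, 0.0221 with pan-leukocyte centring, 0.2177 with median-of-ratios rescaling and 0.11 to 0.23 with a tumor left out. That centring also turned *C1qb* (-0.0265), *C1qc* (-0.0087), *Mrc1* (-0.0396) and *Arg1* (-0.1079), and pan-leukocyte centring turned *Arg1* (-0.0593). With a tumor left out the ranges were -0.4567 to 0.0219 for *Adgre1*, -0.286 to 0.0451 for *Csf1r*, -0.16 to 0.36 for *Mrc1*, -0.0576 to 0.2707 for *Arg1*, -0.19 to 0.85 for *Spp1* and -0.33 to 0.63 for *Spp1* minus *C1qc*. *Cd68* and *C1qa* were above 0 in all 15.

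Replicate numbers are shared by the labels of both genotypes but no source ties them to a litter or day. Deviations of tumors with the same number had correlations of 0.0185, -0.052 and 0.0175, and 0 of 6 tumors correlated best with their own number. The replicate block changed no call among the members. The missing depth limits what can be said of *Cd163* and other genes under 1 TPM.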
